A study of Mus musculus with 2 samples.

Results

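In single cells of mouse optic nerve, 10 genes that describe astrocytes were followed: Gfap and Vim, which encode intermediate filament proteins; Slc1a2 and Slc1a3, glutamate transporters; Aqp4, a water channel; Aldh1l1, a folate enzyme; Serpina3n, Cp and Timp1, secreted proteins; and Osmr, the receptor subunit for oncostatin M. All 10 were found by symbol among 32285 genes in both libraries, each on 1 row. Astrocytes were taken as kept cells with at least 4 UMIs summed over Aqp4, Gfap, Slc1a2 and Aldh1l1, a UMI being a molecular identifier that counts 1 captured transcript. That rule found 525 of 15726 kept cells in the vancomycin library (3.34%) and 54 of 4108 in the control library (1.31%). The 4 genes of the rule are described in the cells they chose and are not read as a difference there, since choosing cells on a gene raises that gene in them.

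Both libraries came from optic nerves of Nf1-OPG mice, which model the optic pathway glioma of neurofibromatosis type 1. Each carried 1 floxed Nf1 allele and 1 allele with a neomycin cassette in exon 31, so that cells outside the Cre lineage are Nf1+/-, and GFAP-Cre removed the floxed allele in neuroglial progenitors. Mice of one group received vancomycin, an antibiotic, from 6 to 12 weeks of age, and those of the other PBS over the same weeks; nerves were taken at 12 weeks and 10 mice were pooled per library. Because Cre was driven by a GFAP promoter, the astrocytes of both groups belong to the targeted lineage and neither group holds astrocytes of a wild-type mouse.

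With 1 library per group there was no replicate spread, no test was possible, and every difference below is one between 2 pools of mice. All intervals are exact 95% intervals that cover counting error only. The vancomycin library held 144451114 UMIs in 16596 barcodes and the control library 25609899 in 4272; kept cells had medians of 6970 and 4870.5 UMIs. The libraries shared 100 barcodes. Levels are given as CPM, in which the UMIs of a gene are scaled by the sum of all UMIs in the cells named. A gene was measured in a set of cells with at least 50 UMIs over both libraries, and it counts as 2-fold higher or lower where the log2 ratio, with 10 CPM added to each level, was at least 1 in size.

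Astrocytes clear glutamate, buffer ions and water at vessels and axons, and supply metabolites to neurons and myelin. After injury, infection or tumour growth they become reactive: filament genes and a set of secreted and immune genes are transcribed more, in combinations that depend on the stimulus. Oncostatin M and its relatives signal through a receptor built from Osmr or Lifr and the shared subunit Il6st (gp130), and pass the signal to the transcription factor Stat3; Socs3 is a Stat3 target that shuts the receptor off. In the optic nerve, astrocytes are the main Gfap-bearing cells and stand beside oligodendrocytes, their precursors, microglia and the fibroblasts of the sheath.

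Promoter windows are shown for 4 members because they stand for the regulation the list is about: Gfap, a classical Stat3 target, Cp and Timp1, secreted members whose levels follow below, and Slc1a3, the transporter outside the rule. Sequences are RefSeq windows of GRCm38.p6 (mm10), 250 bases before to 10 bases after an annotated start, in the direction of the gene. Capitals mark matches on either strand, searched over windows reaching 50 bases past the start, to TTCNNNGAA (the letters bound by STAT proteins), TGANTCA (bound by AP-1) and TATAAA.
Gfap, chr11:102897191-102897450, minus strand: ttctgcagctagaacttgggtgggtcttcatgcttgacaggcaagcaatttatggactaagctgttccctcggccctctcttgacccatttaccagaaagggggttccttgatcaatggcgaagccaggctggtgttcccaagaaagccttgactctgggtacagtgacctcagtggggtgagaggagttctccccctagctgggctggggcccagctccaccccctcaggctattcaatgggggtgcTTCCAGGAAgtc
Cp, chr3:19956804-19957063, plus strand: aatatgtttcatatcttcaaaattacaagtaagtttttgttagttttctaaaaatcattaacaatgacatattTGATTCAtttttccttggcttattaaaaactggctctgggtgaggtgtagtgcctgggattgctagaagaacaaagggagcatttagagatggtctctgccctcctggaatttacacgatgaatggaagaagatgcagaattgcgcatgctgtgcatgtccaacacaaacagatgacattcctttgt
Slc1a3, chr15:8710798-8711057, minus strand: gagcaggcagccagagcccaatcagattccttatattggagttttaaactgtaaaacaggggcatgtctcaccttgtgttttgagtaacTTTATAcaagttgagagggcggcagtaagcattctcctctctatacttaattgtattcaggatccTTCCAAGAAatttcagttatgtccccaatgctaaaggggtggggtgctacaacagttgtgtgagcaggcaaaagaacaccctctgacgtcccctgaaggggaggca
Timp1, chrX:20869916-20870175, plus strand: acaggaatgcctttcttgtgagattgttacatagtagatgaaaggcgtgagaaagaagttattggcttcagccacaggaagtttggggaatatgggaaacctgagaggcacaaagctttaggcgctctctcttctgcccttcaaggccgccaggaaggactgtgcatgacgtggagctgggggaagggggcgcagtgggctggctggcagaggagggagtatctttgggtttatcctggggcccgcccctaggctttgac

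The Gfap window held TTCCAGGAA across the annotated start, at -2 to 7. The Slc1a3 window held TTCCAAGAA at -96 to -88 and TTTATA, the TATAAA motif on the other strand, at -161 to -156. The Cp window shown held TGATTCA at -177 to -171, and these letters were not found in the Timp1 window. Another Cp window, at a different annotated start, held no match to TGANTCA. It held matches to TATAAA at -27 to -22, on the other strand, and at -25 to -20. Over 32851 promoter windows of 300 bases, TTCNNNGAA occurred in 8.30%, TGANTCA in 7.81% and TATAAA in 13.6%. Windows matched 9 of the 10 members. A match is a description of letters, and no binding was measured.

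The 10 genes lie at separate places of mm10. Gfap (ENSMUSG00000020932) spans chr11:102887336-102900912, Vim (ENSMUSG00000026728) chr2:13573927-13582826, Slc1a2 (ENSMUSG00000005089) chr2:102658659-102790784 and Slc1a3 (ENSMUSG00000005360) chr15:8634124-8710764. Cp (ENSMUSG00000003617) spans chr3:19957054-20009145, Timp1 (ENSMUSG00000001131) chrX:20870166-20874735 and Osmr (ENSMUSG00000022146) chr15:6813577-6874969. Serpina3n (ENSMUSG00000021091), at chr12:104406729-104414329, has close paralogs next to it, so its counts carry an uncertainty of assignment. Timp1 overlaps Syn1, Cp overlaps Hps3, Slc1a2 overlaps Gm13872 and Gfap overlaps Gm26668 on the opposite strand, while Slc1a3 and Aldh1l1 share bases with predicted genes on their own strand.

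The data went against the label for most of the cells found by the rule. Of the 525 vancomycin rule cells, 359 (68.4%, 64.2 to 72.3) lay in oligodendrocyte precursor-like clusters and 133 (25.3%, 21.7 to 29.3) in the astrocyte-like cluster. Of the 54 control rule cells, 30 (55.6%, 41.4 to 69.1) were precursor-like and 23 (42.6%, 29.2 to 56.8) astrocyte-like. The remaining 33 and 1 were spread over other classes.

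The precursor-like rule cells met the rule almost entirely through Slc1a2, which supplied 88.3% of their rule UMIs with vancomycin and 95.0% in the control. Their median rule sum was 5 and 8 UMIs, against 13 and 16 in astrocyte-like rule cells. Pdgfra, the growth factor receptor that defines oligodendrocyte precursors, had a UMI in 99.7% and 100% of them and in 0.75% and 0% of the astrocyte-like rule cells. Gja1, the gap junction protein of astrocytes, had one in 75.2% and 91.3% of the astrocyte-like rule cells and in 0.56% and 0% of the precursor-like. Precursor-like cells that met the rule were deeper than those that did not, with medians of 8327 against 6394 UMIs and of 11846 against 7730.

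**Figure D1:**
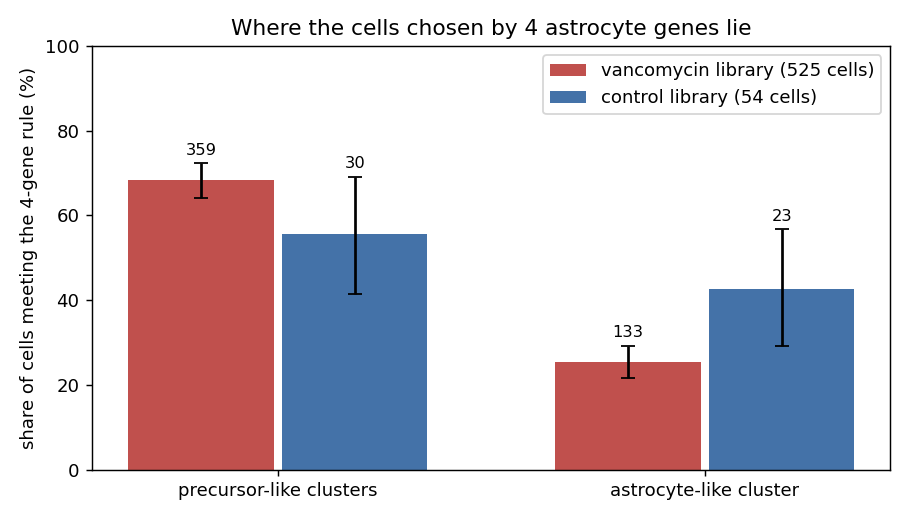
Cells that meet the 4-gene rule, by class and library: bars give the percent of each library's rule cells with exact 95% intervals. Precursor-like cells made up 68.4% of 525 vancomycin and 55.6% of 54 control rule cells, and astrocyte-like cells 25.3% and 42.6%.

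The rule does not fall at a gap in the counts. In the vancomycin library 212 kept cells had a rule sum of 3, just outside, and 128 had a sum of 4, just inside; in the control library these were 15 and 5 cells. A doublet score above 0.2 was found in 50 vancomycin rule cells, 44 of them precursor-like and none astrocyte-like, and in none of the control.

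Over all rule cells, 8 of the 10 members were measured, 4 of them outside the rule; of those 4, Vim was 2-fold higher with vancomycin and Slc1a3 2-fold lower. Over all 11025 genes measured in these cells, 5.75% were 2-fold higher and 3.32% lower. Vim was at 579 against 154 CPM, a ratio of 3.76 (2.98 to 4.80), and Slc1a3 at 344 against 881 CPM, a ratio of 0.390. As a description of genes that chose the cells, Gfap was at 277 against 102 CPM and Aldh1l1 at 22.7 against 70.8 CPM, which would bring the counts to 2 higher and 2 lower of 8. These sums mix 2 cell types in different proportions, 25.3% against 42.6% astrocyte-like cells, and are therefore given by cell type from here on.

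In the astrocyte-like rule cells, 133 with vancomycin and 23 in the control, Vim and Cp were 2-fold higher with vancomycin among the 4 measured members outside the rule, and none of these was 2-fold lower. Of 2397 genes measured in these cells 10.6% were higher and 4.55% lower. Cp was measured only through the vancomycin library, with 99 UMIs there and 1 in the control, so its count carries no weight as support. With the 4 genes of the rule, described only, Gfap makes the count 3 of 8. All 12 fixed astrocyte markers were detected in both libraries, with summed levels of 13888 and 18139 CPM. These cells held 521967 and 129166 UMIs in all, with median depths of 3283 and 5075 UMIs per cell.

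Vim, the filament protein of immature and reactive astrocytes, was the member outside the rule with the most UMIs to compare. Although outside the rule, it was not independent of it. Across cells Vim rose with Gfap, with Pearson correlations of log values of 0.74 with vancomycin and 0.72 in the control. In the control only 4 cells held both genes. Gfap supplied 41.1% of the rule UMIs with vancomycin and 6.32% in the control. How far the choice of cells raised Vim was not tested. Vim had 1636 UMIs with vancomycin and 42 in the control, or 3134 CPM (2984 to 3290) and 325 CPM (234 to 440). The ratio was 9.64 (7.10 to 13.4). Vancomycin cells ranged from 0 UMIs through a median of 0 to 144, and control cells from 0 through a median of 0 to 12. The libraries therefore overlapped at 0, and the difference lay in the upper part of the range: 58 of 133 vancomycin cells (43.6%) and 6 of 23 control cells (26.1%) had any Vim. The intervals of these 2 shares, 35.03 to 52.47% and 10.23 to 48.41%, overlapped. With each cell thinned to 1000 UMIs the shares were 38.7% and 9.09%, given without intervals. Cells under 1000 UMIs cannot be thinned to that depth. The control cell of 619 UMIs, which held 5 Vim UMIs, is among them. The thinned shares are therefore not read as a larger difference.

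Gfap, the filament gene by which astrocytes are recognised, belongs to the rule and is given as a description. Its level was 1966 CPM (1847 to 2090) with vancomycin, from 1026 UMIs, and 232 CPM (157 to 332) in the control, from 30 UMIs. The median cell held 1 UMI with vancomycin and 0 in the control, and the highest cells 87 and 16. A UMI was found in 78 cells (58.6%) and 8 cells (34.8%). With every cell weighted equally the log2 ratio was 0.79, under 2-fold, against 3.03 for the summed UMIs; the control cell with 16 Gfap UMIs had only 619 UMIs in all. Gfap supplied 41.1% of the rule UMIs of vancomycin cells and 6.32% of those of control cells, while Slc1a2 supplied 40.0% and 68.8%.

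Slc1a3 (GLAST), which takes up glutamate and is not part of the rule, was lower with vancomycin by less than 2-fold. It was at 2167 CPM (2042 to 2297) with vancomycin and 2896 CPM (2609 to 3204) in the control, a ratio of 0.748 (0.665 to 0.843). The median cell had 7 Slc1a3 UMIs with vancomycin and 18 in the control, with maxima of 35 and 42. Although outside the rule, Slc1a3 was not independent of it. Its correlation of log values with Slc1a2 was 0.30 with vancomycin and 0.79 in the control, and with Gfap -0.41 and -0.83. How far the choice of cells moved Slc1a3 was not tested. Slc1a2 (GLT-1), a gene of the rule and so given only as a description, had a ratio of 0.755 (0.666 to 0.858), with medians of 6 and 12 UMIs per cell. Median depth was also lower in the vancomycin cells, so the medians per cell differ by more than the CPM.

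Aqp4, the water channel of astrocyte endfeet, was at 738 and 650 CPM, a ratio of 1.13 (0.894 to 1.45) whose interval includes 1. Aldh1l1, which oxidises a folate derivative and is used as a general astrocyte marker, was at 167 and 263 CPM, a ratio of 0.633 (0.421 to 0.971). Both genes belong to the rule.

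Among the secreted members, Cp stood out in ratio but rests on few control UMIs. Cp encodes ceruloplasmin, a copper-bearing ferroxidase that astrocytes use in iron export. It had 99 UMIs in 28 vancomycin cells, none with more than 14, and 1 UMI in 1 control cell. The levels were 190 CPM (154 to 231) and 7.74 CPM (0.196 to 43.1), a ratio of 24.5 (4.30 to 977). The T cell-like cells, which should lack Cp, stood at 1.06 and 0.412 CPM.

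Serpina3n, a serine protease inhibitor and a much used mark of reactive astrocytes, was not distinguishable at this depth. It had 92 UMIs in 37 vancomycin cells and 15 UMIs in 11 control cells, or 176 (142 to 216) and 116 CPM (65.0 to 192), and the ratio of 1.52 (0.874 to 2.82) has an interval that includes 1. Its direction turned with every cell weighted equally, to a log2 ratio of -0.26. Timp1, an inhibitor of matrix metalloproteinases, had 20 UMIs in 7 vancomycin cells, 12 of them in 1 cell, and 0 in the 23 control cells. A floor of 3 counts over the control cells would put the ratio at 1.65 or more, but without that 1 cell 8 UMIs remained and the bound was 0.672, so no direction is read. Osmr, which binds oncostatin M together with Il6st, had 24 UMIs in 13 vancomycin cells and 5 UMIs in 1 control cell, or 46.0 and 38.7 CPM. Timp1 and Osmr were below the 50 UMIs needed to be counted.

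**Figure D2:**
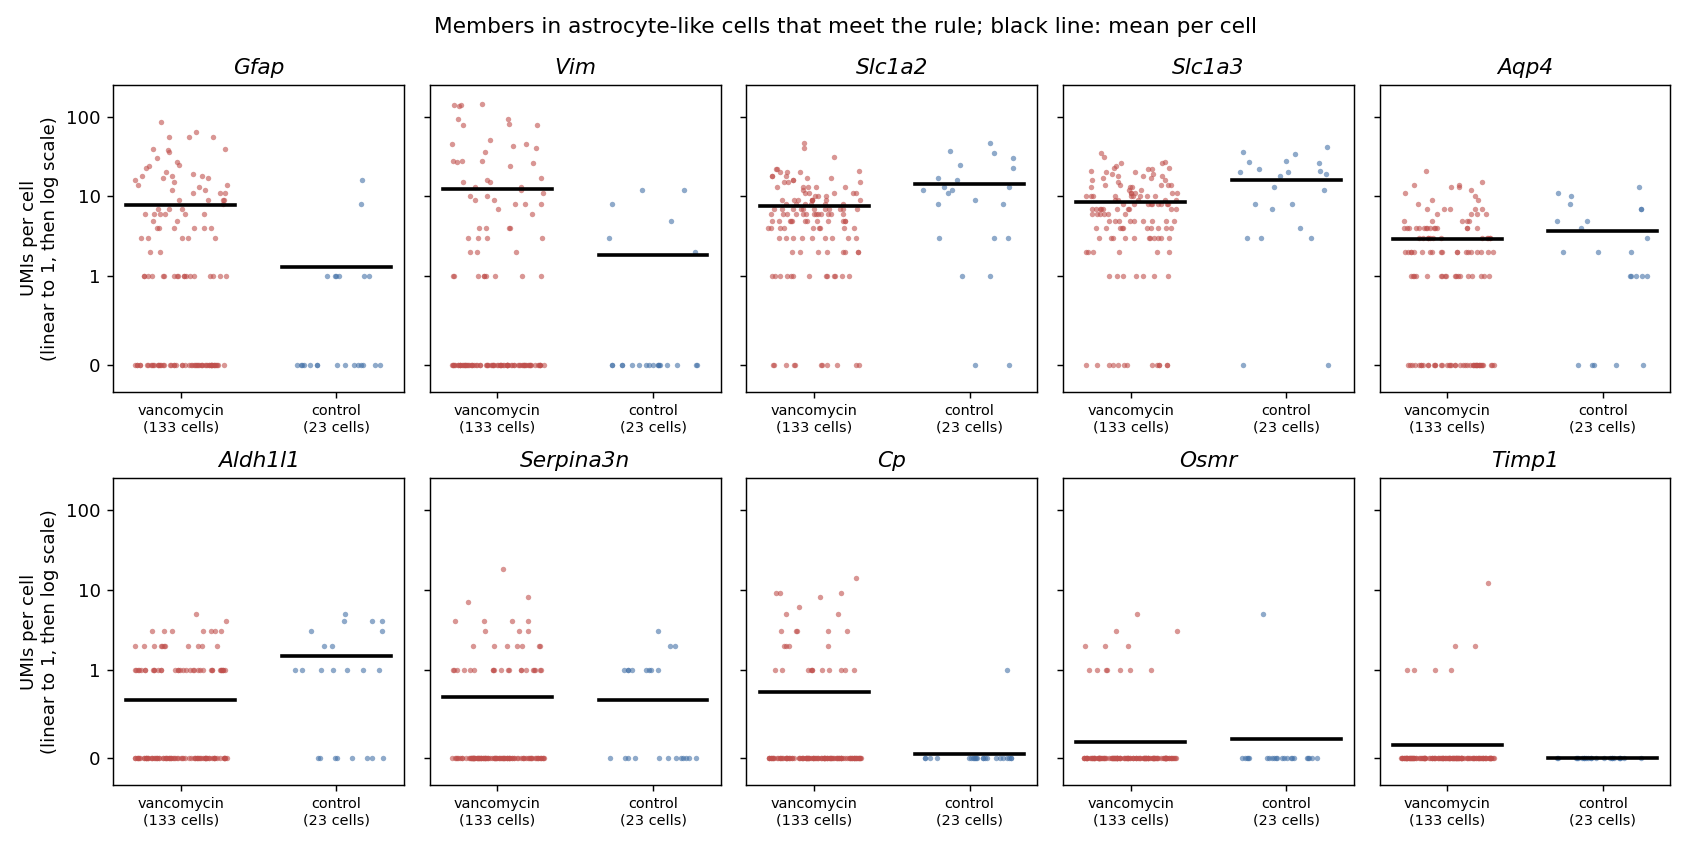
UMIs of each member per astrocyte-like rule cell, 133 vancomycin and 23 control cells, 1 point per cell on a scale that is linear to 1 and logarithmic above it, with black lines at the means. Vim reaches 144 UMIs with vancomycin and 12 in the control, Gfap 87 and 16, while Slc1a3 has medians of 7 and 18.

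With vancomycin, Vim and Gfap were high in the same cells. Across the 133 vancomycin cells their levels per cell, as log values, had a Pearson correlation of 0.74, and 53 cells held both. Across the 23 control cells it was 0.72, but only 4 cells held both. Of the 30 control Gfap UMIs, 16 and 8 lay in cells of 619 and 1044 UMIs. The control cells with the most Vim, at 12 UMIs, held no Gfap. Vim against Slc1a2 gave -0.50 and -0.74, and Vim against Cp gave 0.60 with vancomycin. These are descriptions across cells of 1 library, which share depth and free RNA, and Gfap and Slc1a2 also helped to choose the cells.

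A split of the astrocyte-like rule cells by whether a cell had a Vim UMI, made after these values were seen, sets the 2 kinds side by side. With vancomycin, Gfap was at 3355 CPM in the 58 cells with Vim and 318 CPM in the 75 without. Cp was at 346 against 4.19 CPM and Serpina3n at 268 against 67.0 CPM, and all 20 Timp1 UMIs lay in cells with Vim. Slc1a3 was at 1921 against 2458 CPM and Slc1a2 at 1427 against 2488 CPM. A cell without Gfap must reach the rule sum mainly through Slc1a2, so the contrast between these 2 genes is partly built in by the rule. Depth medians were 3726 UMIs in cells with Vim and 3181 in those without.

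The same split held genes outside the list. Agt, the angiotensinogen gene of astrocytes, was at 724 CPM in vancomycin cells with Vim and 4163 CPM in those without, and the GABA transporter gene Slc6a11 at 279 and 1466 CPM. Pax2, a transcription factor of optic nerve astrocyte precursors, was at 74.2 CPM in cells with Vim and had no UMI in the others. The control library repeated part of the pattern in few cells, 6 with Vim and 17 without. Gfap was at 617 and 46.0 CPM in them, Slc1a2 at 1068 and 3240 CPM and Slc1a3 at 1591 and 3527 CPM. Of the 26 Gfap UMIs in the 6 cells, 16 and 8 lay in cells of 619 and 1044 UMIs. Aqp4 was at 47.5 and 942 CPM in the control, whereas with vancomycin it was at 660 and 829 CPM. Serpina3n did not repeat the pattern in the control, with 2 UMIs in cells with Vim and 13 in those without.

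The astrocyte-like cluster also held cells that missed the rule, 81 with vancomycin and 77 in the control. Of these, 48 and 60 had a UMI of Rax, Col25a1 or Scn7a, 3 genes among or beside those that lead the cluster, which were picked after their values were seen. Slc1a3 was at 717 and 643 CPM in the cells that missed the rule, and Vim at 943 and 773 CPM. Vim thus differed far less in them, and its ratio in rule cells is not one for the whole cluster. Among rule cells, 9 of 133 and 4 of 23 carried such a UMI, with 18 UMIs in the former and 117 in the latter. Without these cells, 124 and 19 remained. Vim then had a ratio of 10.8 (7.12 to 17.3), Gfap 5.79 (4.0 to 8.70) and Cp 14.6 (2.54 to 585), from levels of 2821 and 261 CPM, 1990 and 344 CPM, and 173 and 11.8 CPM.

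**Figure D3:**
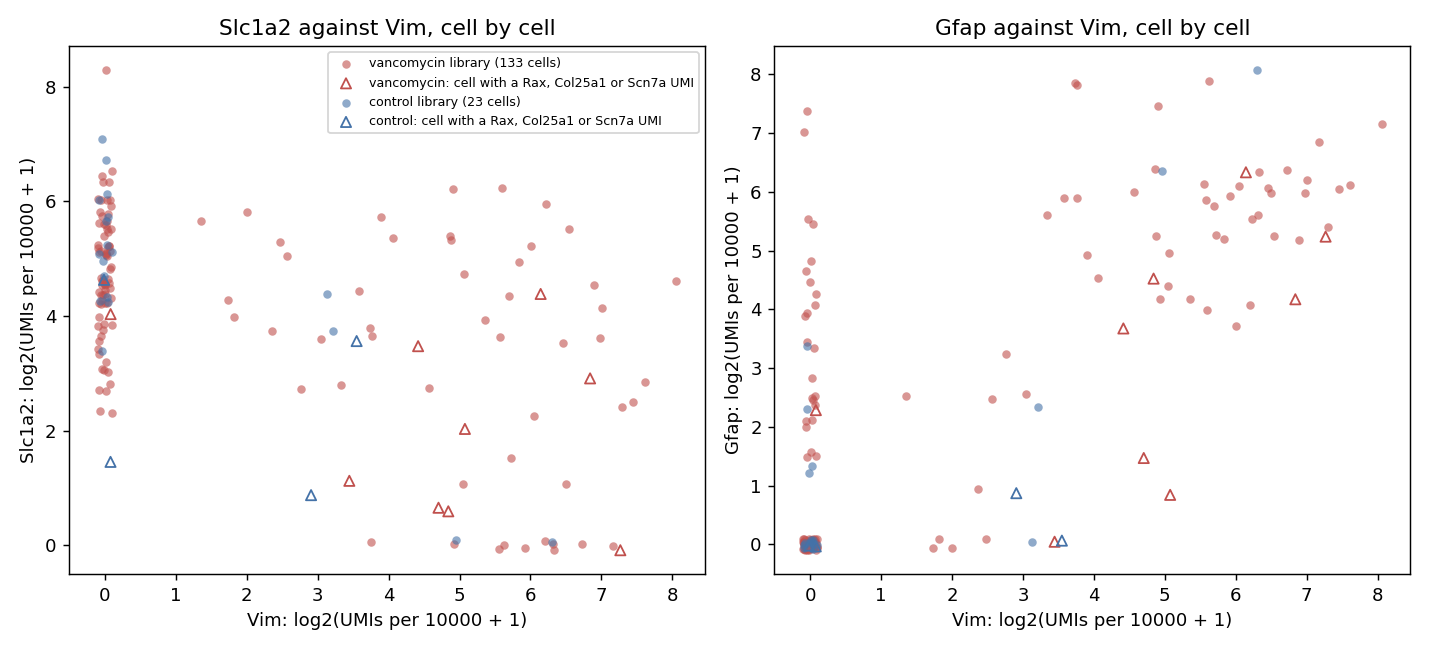
Levels per astrocyte-like rule cell as log2 of UMIs per 10000 plus 1, with Slc1a2 and Gfap each plotted against Vim, 1 point per cell and 1 colour per library; triangles mark cells with a UMI of Rax, Col25a1 or Scn7a. With vancomycin most cells with high Vim also hold Gfap, with a correlation of 0.74 in 133 cells. It was 0.72 in 23 control cells, of which only 4 held both.

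Lists of astrocyte genes were read in the same 133 and 23 cells, where the median log2 ratio over all measured genes was 0.08. Of 30 astrocyte identity genes, 29 were measured, and 2 passed the 2-fold limit upward and 2 downward; the median was -0.09. The most abundant, Apoe, a lipid carrier, was at 22864 and 14416 CPM, and Cst3, a protease inhibitor, at 18858 and 17009 CPM. S100b, a calcium-binding protein that oligodendrocytes also express, was at 414 and 147 CPM, and T cell-like cells of the vancomycin library held it at 92.6 CPM against none in the control. Clu, a secreted chaperone, was at 5799 and 2408 CPM, a ratio of 2.41. Slc6a11 was at 822 and 2005 CPM, a ratio of 0.410.

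The 3 lists of reactive astrocyte genes were thinly sampled, with 6 of 14, 7 of 12 and 2 of 12 genes measured. A gene with few control UMIs could be measured only through the vancomycin library, so the counts of higher genes below describe these cells and are no support for a direction. Of 12 genes of the reactive group A1, named for astrocytes after endotoxin, 7 were measured and all 7 were 2-fold higher, with a median log2 ratio of 3.62, or 3.57 with the 2 genes at 0 in the control set to their floor. With a limit of 10 UMIs all 12 were measured, 7 were higher and 2 lower, and the median was 1.77. The share over all measured genes was 10.6%. H2-D1, a class I antigen-presenting gene, was at 1335 and 310 CPM, and H2-T23, another, at 567 and 38.7 CPM. C3, the central complement component, had 197 UMIs with vancomycin and 0 in the control, at least 16.2-fold higher; 11 cells held it, and 112 of the UMIs were in 1 cell. Of the 197, 165 lay in the 9 cells with a UMI of Rax, Col25a1 or Scn7a; without these the bound was 2.08-fold. Serping1, the inhibitor of the first complement component, had 134 UMIs in 36 vancomycin cells and 0 in the control, at least 11.1-fold higher; without those 9 cells its bound was 5.46.

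Free RNA bears on these genes unequally. In T cell-like cells, which make class I genes themselves, H2-D1 stood at 3056 and 3635 CPM and Psmb8 at 913 and 650 CPM, above their levels in the astrocyte-like cells. C3 and Serping1 stood there at 0.473 and 1.06 CPM with vancomycin. With the T cell-like level of each library subtracted, 4 of the 7 A1 genes were 2-fold higher, where 15.6% of all genes were. The subtraction takes H2-D1 and Psmb8 to 0 in both libraries, so this count gives no measure of free RNA. Without the cells that carried Rax, Col25a1 or Scn7a, 5 of 6 measured A1 genes were higher, where 15.6% of all genes were. C3 and Serping1 UMIs lay mainly in cells with Vim, at 696 against 0 CPM and 452 against 25.1 CPM.

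Of 14 pan-reactive genes 6 were measured, 4 were 2-fold higher and none lower, with a median log2 ratio of 1.69, unchanged with Cxcl10 set to its floor. Cxcl10, a chemokine that attracts T cells, had 600 UMIs in 13 vancomycin cells, 294 of them in 1 cell, and 0 in the control, at least 49.5-fold higher. The 9 vancomycin cells with Rax, Col25a1 or Scn7a held 517 of the 600 UMIs, and without them 83 remained, at least 5.39-fold higher. Without only the cell with the most Cxcl10, 306 UMIs remained, at least 25.7-fold higher, and the counts of higher A1 and pan-reactive genes were again 7 of 7 and 4 of 6. Lgals3, a galectin, was at 153 and 15.5 CPM. S100a6, a calcium-binding protein, was at 1548 and 1084 CPM and Cd9, a membrane tetraspanin, at 860 and 689 CPM, both under 2-fold. Without the cells carrying Rax, Col25a1 or Scn7a, 2 of 4 measured pan-reactive genes were higher, where 15.6% of all genes were. Of 12 genes of the reactive group A2, 2 were measured and 1 was higher, Tm4sf1 at 130 and 15.5 CPM, beside S100a10 at 132 and 69.7 CPM.

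The receptor pathway of Osmr gave no higher gene among those with at least 50 UMIs. Of 20 genes of gp130 signalling 8 were measured, none was 2-fold higher and 4 were lower, with a median log2 ratio of -0.96 and a background of 4.55% lower. Socs3, the feedback inhibitor, had 28 and 88 UMIs, or 53.6 and 681 CPM, a ratio of 0.0787 (0.0495 to 0.122), and 66 of the 88 control UMIs lay in 1 cell. Junb, an AP-1 subunit, was at 444 and 1146 CPM. The transcription factor genes Cebpd and Cebpb were at 385 and 790 CPM and at 126 and 372 CPM. These counts depend on few cells and on the settings. With a limit of 10 UMIs 12 genes were measured, 1 was higher and 4 were lower, with a median of -0.88. Over all genes 13.2% were then higher and 6.51% lower. With the T cell-like level of each library subtracted, 3 of 8 were lower and the median was -0.18, where 10.3% of all genes were lower. T cell-like cells held Socs3 too, so for such genes the subtraction gives no measure of free RNA. Without the 9 vancomycin and 4 control cells carrying Rax, Col25a1 or Scn7a, none of 6 measured genes was 2-fold lower and the median was 0.11. Other early response genes were lower in the same cells, with Fos at 542 and 3283 CPM and Ccn1 at 99.6 and 1347 CPM. Socs3 was also lower with vancomycin in microglia-like cells, a ratio of 0.447, and in T cell-like cells, a ratio of 0.502. The part of an early response in the Socs3, Junb, Cebpd and Cebpb values was not tested.

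The receptor chain itself was shallowly sampled in astrocyte-like rule cells. Il6st was at 146 and 101 CPM and Stat3 at 138 and 163 CPM. Lifr, the subunit that pairs with Il6st for Lif, had 20 and 10 UMIs. The ligands were nearly missing in these cells: Osm had 1 and 0 UMIs, Lif 4 and 0, and Il6 0 and 5.

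Markers of other cell types moved with the same comparison. In astrocyte-like rule cells the 11 oligodendrocyte markers summed to 877 CPM with vancomycin and 294 CPM in the control, where 8 of the 11 were at 0, and Mbp, the myelin basic protein gene, was at 1295 and 15.5 CPM. Hormone cell markers summed to 2088 and 15.5 CPM, in 12.8% and 8.70% of cells, and erythroid markers to 4255 and 61.9 CPM, in 15.8% and 21.7%. The T cell markers summed to 74.7 and 449 CPM, and the 11 fibroblast markers to 193 and 124 CPM, in 28.6% and 47.8% of cells, with Dcn, Col3a1, Lum and Igfbp6 at 0 in both. Their part in the differences of Gfap, Vim, Cp and the lists was not tested. T cell-like cells, which should lack most members, held Gfap at 2.95 CPM, which is 0.15% of the vancomycin astrocyte-like level, Cp at 0.56% of it and Serpina3n at 4.83%. Other classes of that library held more Serpina3n, with 179 CPM in erythroid-like and 87.1 CPM in B cell-like cells. T cells make Vim themselves, at 766 and 907 CPM, so they give no level of free RNA for Vim.

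**Figure D4:**
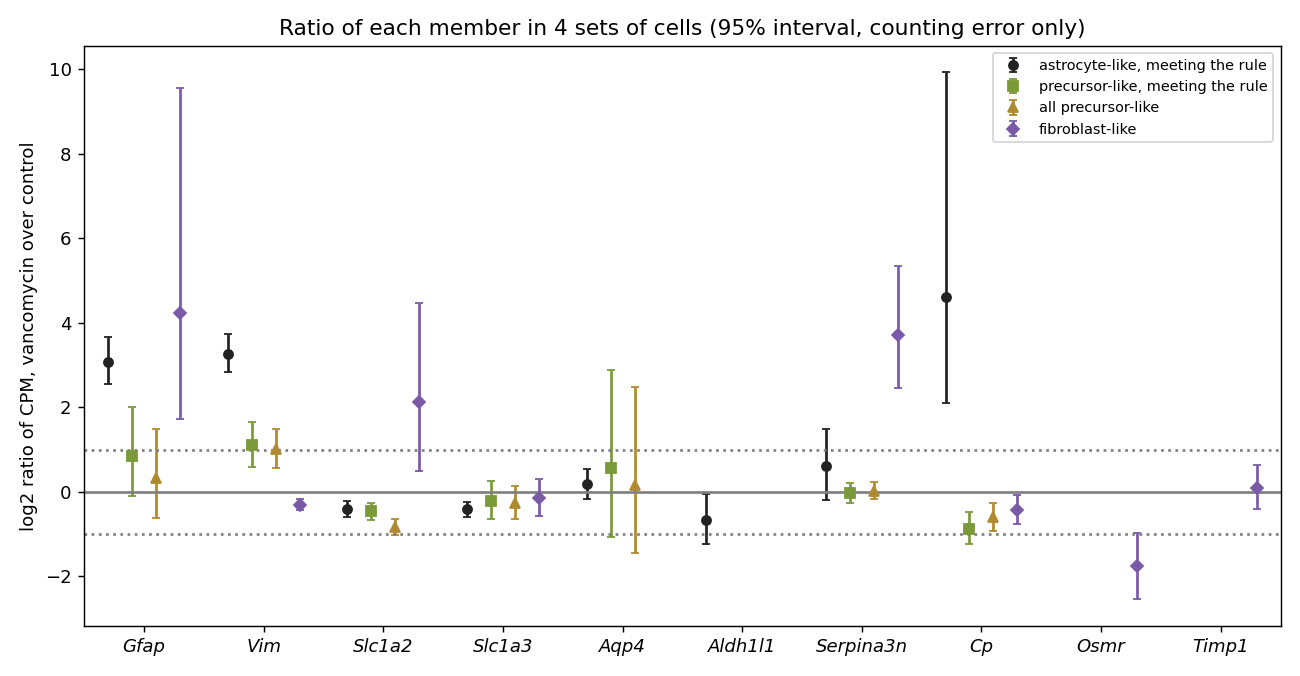
Log2 ratio of CPM, vancomycin over control with nothing added, for each member in 4 sets of cells, with exact 95% counting intervals and dotted lines at a 2-fold difference. Vim lies above the upper line in astrocyte-like rule cells and below 0 in fibroblast-like cells, and Cp is above 0 in the former and below 0 in the other sets.

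In oligodendrocyte precursor-like cells, 1160 with vancomycin and 52 in the control, no measured member was 2-fold higher or lower; 6% of 12222 measured genes were higher and 2.62% lower. Of these cells, 1004 and 48 lay in a cluster led by Cspg5 and Lhfpl3 and the others in one led by Gpr17, a receptor of committed progenitors. Vim was at 168 and 83.6 CPM, a ratio of 2.01 (1.47 to 2.81) that stays under the limit once 10 CPM are added (log2 ratio 0.93). Slc1a2 was at 291 CPM (281 to 302) and 520 CPM (458 to 588), a ratio of 0.560 (0.493 to 0.640). With vancomycin, Slc1a2 was at 334 CPM in the cluster led by Cspg5 and 56.1 CPM in the one led by Gpr17.

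Serpina3n was as abundant in control as in vancomycin precursors, at 412 and 420 CPM, a ratio of 1.02 (0.887 to 1.18), and its cells ranged up to 32 and 137 UMIs around a median of 1 in both. Cp was lower with vancomycin, at 110 against 167 CPM, a ratio of 0.658 (0.526 to 0.834), and the median cell held 1 UMI in both. Slc1a3 was at 101 and 120 CPM. Gfap had 225 and 9 UMIs, and Aldh1l1, Timp1 and Osmr had 15, 18 and 34 UMIs with vancomycin and 0, 0 and 3 in the control. Of the receptor chain, Socs3 was at 276 and 1441 CPM, a ratio of 0.191, and Stat3 at 200 and 436 CPM.

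In the precursor-like cells that met the rule, 359 and 30, Vim was 2-fold higher at 204 and 95.0 CPM, where 7.48% of genes were higher and 3.62% lower. Cp was at 113 and 208 CPM there, a ratio of 0.545. The rule took 30.9% of the vancomycin and 57.7% of the control precursor-like cells. With them left out, Vim was 2-fold higher (log2 ratio 1.18), Cp had a log2 ratio of 0.42 and Serpina3n one of 0.45. Few control cells remained, since 30 of 52 were left out, and no interval was computed. The direction of Cp in the remaining precursors is therefore not read.

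Oligodendrocyte-like cells were found with vancomycin, 3617 cells, and not in the control, so no comparison was possible. Whether the 2 suspensions were prepared alike is not clear from the labels. Shares of kept cells and of classes therefore describe each suspension and are not read as a difference between the groups. Serpina3n was their leading member, at 687 CPM (680 to 695), in 73.3% of cells, with 0, 2 and 319 UMIs as the lowest, median and highest. Its level differed between their clusters. A cluster of 607 cells led by Iigp1, an interferon-inducible GTPase, had Serpina3n at 2097 CPM, in 97.9% of cells with a median of 20 UMIs, whereas the other clusters stood at 476, 241 and 498 CPM. Serpina3n is among the genes that lead that cluster by fold, although the 10 members were left out of the clustering. Slc1a3 was at 64.9 CPM, Vim at 25, Cp at 10.4 and Gfap at 7.00 CPM in oligodendrocyte-like cells.

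In fibroblast-like cells, 345 with vancomycin and 139 in the control, Gfap and Serpina3n were 2-fold higher with vancomycin and Osmr 2-fold lower; 5.41% of 9195 measured genes were higher and 3.38% lower. Gfap had 69 UMIs in 10 vancomycin cells, 50 of them in 1 cell, and 1 UMI in the control. Serpina3n had 238 UMIs in 18 vancomycin cells, at most 72 in a cell, and 5 in the control, or 77.8 and 5.95 CPM, a ratio of 13.1 (5.53 to 40.7). Neither gene was spread through the fibroblasts: each lay in a minority of cells. Both reached 50 UMIs only through the vancomycin library, so their count carries no weight as support. Serpina3n was also 2-fold higher with vancomycin in microglia-like, border-associated macrophage-like, dendritic cell-like and natural killer cell-like cells. In all, 5 vancomycin fibroblast-like cells met the astrocyte rule. Without these 5 cells Gfap was at 3.04 CPM and below the 50 UMIs needed, while Serpina3n was at 79.3 CPM with a log2 ratio of 2.48.

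Osmr, the receptor subunit, was detected in fibroblasts of both libraries. It had 31 UMIs in 27 vancomycin cells and 29 UMIs in 14 control cells, or 10.1 CPM (6.89 to 14.4) and 34.5 CPM (23.1 to 49.6), a ratio of 0.294 (0.171 to 0.505). In the cluster led by Dcn, which held 181 and 68 cells, Osmr was at 15.4 and 60.8 CPM, and Socs3 over all fibroblast-like cells was at 209 and 1385 CPM, a ratio of 0.151. Il6 had 0 UMIs with vancomycin and 12 in the control. Osmr and Socs3 were thus both lower in the vancomycin library.

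Timp1, Vim, Cp and Slc1a3 differed by less than 2-fold in fibroblast-like cells. Timp1, highest in this class in the control, was at 52.3 and 48.8 CPM, a ratio of 1.07 (0.757 to 1.55), and it was higher in the cluster led by Ccn3, at 97.5 and 94.6 CPM, than in that led by Dcn, at 8.97 and 4.67 CPM. Vim was at 700 and 864 CPM, a ratio of 0.810 (0.744 to 0.882), below its level in T cell-like cells of each library, and Cp at 85.0 and 114 CPM, a ratio of 0.744 (0.587 to 0.951). Slc1a3 was at 62.8 and 69.0 CPM.

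Microglia-like cells, 1635 and 1221, were the second class with a high level of Slc1a3. It was at 236 and 195 CPM, a ratio of 1.21 (1.13 to 1.30), in 43.0% and 40.9% of cells. Vim was at 173 and 223 CPM, a ratio of 0.776. Serpina3n was at 15.9 and 0.293 CPM, where 3.64% of measured genes were 2-fold higher and 2.13% lower; T cell-like cells held it at 8.51 and 0.103 CPM. Osm, the ligand of Osmr, was found here at 114 and 161 CPM, a ratio of 0.709.

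Across all classes, the 5 identity genes Gfap, Aqp4, Slc1a2, Slc1a3 and Aldh1l1 had their highest level in astrocyte-like rule cells, among 17 classes with vancomycin and 11 in the control, and the interval did not overlap that of the next class. For 4 of them this follows from the rule. Slc1a3 is outside the rule but was not independent of it. Across these cells its correlation with Slc1a2, a gene of the rule, was 0.30 with vancomycin and 0.79 in the control. How far the choice of cells raised Slc1a3 was not tested. For Slc1a3 the next class was microglia-like in both libraries. T cell-like cells held Slc1a3 at 3.43 and 0.515 CPM, against 236 and 195 CPM in microglia-like cells.

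The reactivity genes had other orders. Vim was highest in astrocyte-like rule cells with vancomycin, ahead of neutrophil-like cells at 2557 CPM, whereas in the control dendritic cell-like cells led at 2645 CPM and astrocyte-like rule cells stood at 325 CPM. Serpina3n was led by oligodendrocyte-like and then precursor-like cells with vancomycin, and by precursor-like and then astrocyte-like cells in the control. With vancomycin, erythroid-like cells followed at 179 CPM (160 to 200). Astrocyte-like rule cells came after them at 176 CPM (142 to 216), with an overlapping interval. With vancomycin Cp was at 190 CPM in astrocyte-like rule cells, 135 in endothelial-like and 110 in precursor-like cells; the endothelial-like interval overlapped both others, which did not overlap each other. In the control the precursor-like and fibroblast-like cells led, at 167 and 114 CPM with overlapping intervals.

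Osmr was highest in endothelial-like cells with vancomycin, at 90.3 CPM (70.7 to 114) in 165 cells, ahead of astrocyte-like and fibroblast-like cells; only 3 endothelial-like cells were kept in the control. Timp1 had overlapping intervals in fibroblast-like and astrocyte-like cells with vancomycin. In T cell-like cells, Gfap was at 2.95 and 0.206 CPM, Serpina3n at 8.51 and 0.103 CPM, Slc1a2 at 2.90 and 0 CPM, and Aldh1l1 at 0.118 and 0.206 CPM, at depth medians of 3896 and 4830 UMIs. A Gfap UMI was found in 1.11% and 0.11% of T cell-like cells. The levels of Serpina3n and Gfap in classes other than glia are of that order or above it, and how much of them is free RNA was not tested.

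**Figure D5:**
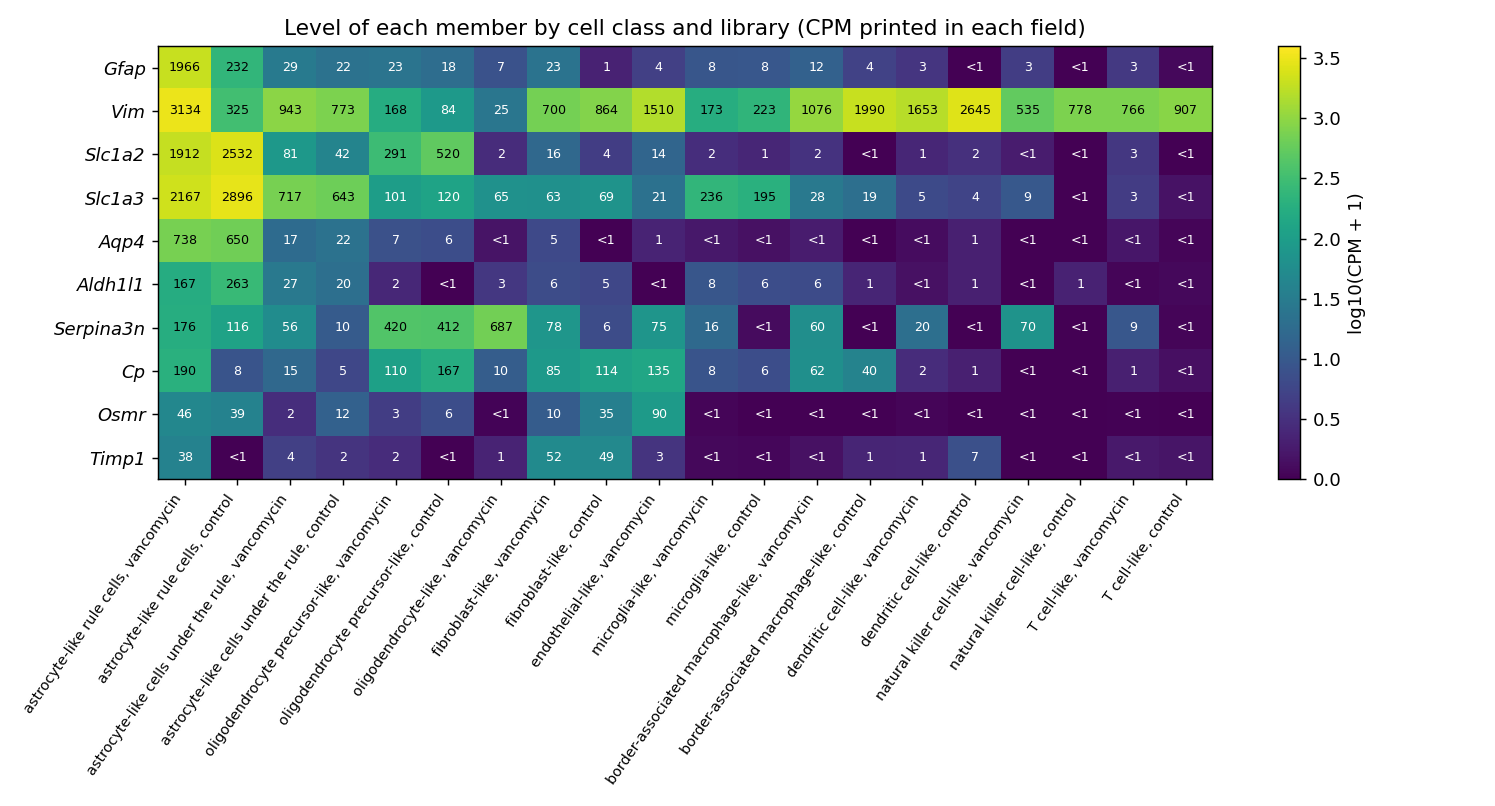
Level of each member in the classes and libraries named under the columns; colour gives log10 of CPM plus 1 and each field prints the CPM. Slc1a3 has a second, lower level in microglia-like cells of both libraries (236 and 195 CPM), and Serpina3n is highest in oligodendrocyte-like cells of the vancomycin library (687 CPM).

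Over 28 profiles of a class in a library with at least 50 cells each, and among 5871 genes, the 3 genes whose pattern was most like each member were listed by the Pearson correlation of log2 levels. Gfap was matched by Btbd17 (0.925), Aqp4 (0.922) and Dct (0.918), and Vim by Flna (0.849), Rbms1 (0.838) and Smpdl3a (0.804). Aqp4 was matched by Igsf1 (0.991), Agt (0.988) and Slc39a12 (0.985), Aldh1l1 by Mlc1 (0.962), Agt (0.959) and Slc39a12 (0.958). The transporter Slc1a2 was matched by Gm3764 (0.990), Bcan (0.984) and Fut9 (0.982), and Slc1a3 less closely by Eva1a (0.886), Fat3 (0.874) and Ldhb (0.862). Among the secreted members, Serpina3n was matched by 2810468N07Rik (0.959), Ncam2 (0.951) and Omg (0.948), Timp1 by Aox3 (0.957), Prrx2 (0.947) and Scara3 (0.937), and Cp by Sash1 (0.852), Rhoj (0.851) and Cav2 (0.849). Osmr was matched by Col4a2 (0.954) and Col4a1 (0.944), which encode chains of basement membrane collagen, and by Ehd2 (0.940). The profiles share 2 libraries and their depths, and these correlations are descriptions.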

How the data were processed

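The authors deposited raw UMI counts per gene and cell from droplet libraries (10x 5′ kit), 1 pool of mice per group, made with Cell Ranger 7.2.0 for vancomycin and 6.0.1 for the control, per the file headers, on mm10, per the submitters' processing notes. Whether intronic reads were counted, and how cells were called, are not given in the sources used here; across quartiles of intron length the median log2 ratio in astrocyte-like rule cells was 0.07, 0.14, 0.01 and 0.12, with 10.5%, 10.4%, 7.35% and 14.0% of genes 2-fold higher from the shortest to the longest. Cmss1 had a UMI in 100% of these cells with vancomycin and 4.35% in the control (16189 and 7.74 CPM), a difference between the libraries whose source was not tested. Barcodes were kept from 500 UMIs and 200 genes upward where mitochondrial UMIs were no more than 20%. Both libraries were clustered together with scanpy 1.11.5 (2000 variable genes without the 10 members, 30 components, 15 neighbours, Leiden resolution 1). Clusters were called X-like by marker lists. Ttr led the astrocyte-like cluster, and Agt, Mlc1, Ntsr2, Col25a1 and Scn7a were also among its 10 leading genes. Its name covers the 48 of 81 vancomycin and 60 of 77 control cells under the rule that carried Rax, Col25a1 or Scn7a. UMIs were summed per class, with exact Poisson, Clopper-Pearson and conditional Poisson intervals (scipy 1.17.1) and a floor of 3 counts over a class in a library; the script was tested on simulated data. No significance test was run. Members and lists were chosen with earlier results of these data known. Named genes were all members, the 2 most abundant and 2 most different measured genes of each list, the 3 genes most like each member and the gp130 receptor chain; Agt, Pax2, Clu, Mbp, Psmb8, Pdgfra, Gja1, Fos, Ccn1 and Cmss1 were named outside this rule. Alternatives were other pseudocounts, filters, rule limits, thinning, Scrublet doublet removal, and edgeR 4.0.16 (TMM) and DESeq2 1.42.0 scaling. Sets without cells carrying Rax, Col25a1 or Scn7a, without single cells, or of precursor-like rule cells alone were added after the data were seen.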

Additional observations from a re-analysis of the deposited data

Results flagged for a closer look

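Cp and Vim differed in direction between classes under the same contrast of vancomycin over control. Cp had a ratio of 24.5 in astrocyte-like rule cells, against 0.658 in oligodendrocyte precursor-like cells and 0.744 in fibroblast-like cells. Without rule cells the log2 ratio of Cp in precursor-like cells was 0.42, from few control cells and with no interval computed. Cp was also higher in border-associated macrophage-like cells, with a ratio of 1.53 (1.05 to 2.33), and at 1.27 (0.854 to 1.90) in microglia-like cells. Vim had a ratio of 9.64 in astrocyte-like rule cells, against 0.810 in fibroblast-like cells and 0.776 in microglia-like cells. The difference was not tested, since each group has 1 library, and the Cp ratio in astrocyte-like cells rests on 1 control UMI. Vim levels in those cells followed those of Gfap, a gene of the rule.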

How the results depend on the processing

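In astrocyte-like rule cells the count of 3 members 2-fold higher (Gfap, a rule gene, included) stayed between 2 and 4 in all 15 alternatives. Gfap fell under 2-fold where cells were weighted equally, and Timp1 was added where fewer UMIs sufficed. The share of all genes 2-fold higher ran from 6.63% with a pseudocount of 50 CPM to 19.1% with the rule on thinned cells. With T cell-like CPM subtracted, the control level of Vim became 0, since T cells make Vim, so Vim was bound to count as higher. The count of 0 lower became 1, Aldh1l1, with the rule applied to cells thinned to 2000 UMIs, where 6% of all genes were lower. Over all rule cells, the 2 higher became 1 with a rule sum of at least 3, in precursor-like rule cells only and with cells weighted equally. The shares of all genes higher were then 4.85%, 7.48% and 5.61%. The 2 became 4 with thinning, where the share was 14.9%. They also became 1 with T cell-like CPM subtracted, with a share of 5.44%. That outcome was fixed in advance for Vim, whose T cell-like levels of 766 and 907 CPM exceed its 579 and 154 CPM in rule cells. The 2 lower became 0 with a rule sum of at least 8, and in astrocyte-like or precursor-like cells alone, and 1 with thinning or a pseudocount of 50 CPM. The shares of all genes lower were 4.61%, 4.55%, 3.62%, 4.83% and 0.907%, in that order. The share of kept cells meeting the rule, 3.34% with vancomycin, was 4.69% with a sum of at least 3, 1.09% with at least 8, 0.757% with thinning, 0.846% in the astrocyte-like cluster alone and 4.29% with oligodendrocytes left out; the control's 1.31% was 0.901%, 0.532% and 0.560% with at least 8, thinning and the cluster alone. In precursor-like cells the 0 higher became 1, Vim, without rule cells, where few control cells remained. In fibroblast-like cells the 2 higher became 1 without rule cells or with a pseudocount of 50 CPM, which also took the 1 lower to 0. The share over all genes was not computed for the alternatives in precursor-like and fibroblast-like cells, so these counts are not read further. TMM and DESeq2 factors shifted log2 ratios in astrocyte-like rule cells by -0.06 and -0.08. With the median log2 ratio of other classes subtracted, Serpina3n in these cells was at -1.26, against a log2 ratio of 0.56 before. Its median ratio of vancomycin over control in the other classes was thus higher than in these cells. The cause was not tested. No paired analysis was possible because each group has 1 library. The 23 control cells, with 129166 UMIs, limit every ratio in astrocyte-like cells.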

Other observations

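Read over all rule cells, precursors included, the lists gave another picture than in astrocyte-like rule cells. Of 29 measured astrocyte identity genes, none was 2-fold higher and 13 were lower with vancomycin (median log2 ratio -0.87), against 2 higher and 2 lower in astrocyte-like rule cells; over all genes measured in rule cells 5.75% were higher and 3.32% lower. Of 11 measured A1 genes 3 were higher there (median 0.51), and of 13 measured gp130 genes 3 were lower (median -0.28). The share of astrocyte-like cells among rule cells, 25.3% and 42.6%, differed between the libraries beside these counts. In the precursor-like rule cells 3 of 9 measured A1 genes were higher and 1 lower, and 4 of 8 measured pan-reactive genes were higher, where 7.48% of all measured genes were higher and 3.62% lower.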
